A study of Mus musculus with 16 samples.

Results

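OCT4 binding was described at the Sox2 gene and at 8 of its paralogs in mouse embryonic stem (ES) cells. The members were the OCT4 ChIP-seq peaks whose midpoint lay inside the gene body, or within 100 kb of any annotated transcript start, of Sox2, Sox1, Sox3, Sox4, Sox9, Sox11, Sox13, Sox15 or Sox21. This rule took 46 of the 26704 peaks in the list, 9 at Sox2 and 37 at the 8 paralogs. Another 3 peaks, 106 kb to 111 kb downstream of Sox2, lay past the window and were read beside the Sox2 peaks to take in its distal downstream region.

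ChIP-seq sequences the DNA fragments that are pulled down with an antibody, here against the transcription factor OCT4, and a peak is a stretch where such fragments pile up. The series asked how losing SOX2 or OCT4 changes the chromatin of ES cells, and it holds 16 libraries in 8 groups of 2. The list used here came from 2TS22C cells, a line whose endogenous Sox2 is disrupted and whose SOX2 comes from a transgene under a Tet-Off promoter that doxycycline silences. OCT4 was profiled in 4 libraries, 2 from untreated cells (SOX2 ON) and 2 from cells kept in 1 ug/ml doxycycline for 26 h (SOX2 OFF), a time at which some SOX2 protein remains in this line. All were grown in serum with LIF, the GSK3 inhibitor CHIR99021 and the MEK inhibitor PD184352, and were fixed with disuccinimidyl glutarate and then formaldehyde. The 2TS22C line is a single engineered background, and per the study's methods the 2 libraries of a group were biological duplicates. The BRG1 libraries of the same line, and the H3K27ac libraries of 2TS22C and of ZHBTc4 cells (OCT4 ON, or OCT4 OFF after 24 h of doxycycline), were not analysed here.

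The list gives the start and end of each peak in base pairs and nothing else. There are therefore no replicates, no read depth and no peak height behind any value below, and SOX2 ON and SOX2 OFF cells could not be compared. A gene without a peak may have had binding below the calling threshold. The label of the cells could not be checked against marker genes, because no expression was measured in these libraries. Gene positions refer to build GRCm38 (mm10) with the GENCODE M21 annotation.

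SOX proteins are transcription factors that bend DNA through an HMG box, and they fall into classes by the sequence of that box. SOX2, with SOX1 and SOX3, forms class SOXB1. In ES cells it pairs with OCT4 on a composite site in which an OCT octamer is followed by a SOX site, and the pair helps to maintain pluripotency and to drive Sox2 itself. The known enhancers of Sox2 in ES cells include SRR1 upstream of the gene, SRR2 just downstream of it, and the distal Sox2 control region far downstream. Most of the paralogs act later: Sox1, Sox3 and Sox21 in neural progenitors, Sox4 and Sox11 in differentiating neurons and mesenchyme, Sox9 in chondrocytes, gonad and neural crest, and Sox13 in lymphoid and neural tissue. Sox15 is expressed in ES cells and is known for its role in muscle. The study names SOX3 and SOX15 as family members that might, in principle, control sites in ES cells that SOX2 binds without regulating.

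The composite motif was searched as the octamer ATTTGCAT followed directly by the SOX site AACAATG, on both strands, allowing up to 3 mismatches over the 15 bases. The octamer alone, and the SOX core CCTTTGT or CCATTGT, were searched on both strands without mismatch. These searches overlap, since an octamer can be part of a composite match and CCATTGT read on the other strand overlaps its SOX site. The match with the fewest mismatches at Sox2 and at each paralog that held a composite match is given here. Ties at Sox21 were settled by the distance to the peak's midpoint. These sites were chosen because there the OCT4 peaks of each such gene came nearest to the OCT4::SOX2 motif. They were read from the GRCm38 genome sequence, 5′ to 3′ on the minus strand, and capitals mark the 15-base match.

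Sox2, peak 3.57 kb downstream, chr3:34653929-34654183: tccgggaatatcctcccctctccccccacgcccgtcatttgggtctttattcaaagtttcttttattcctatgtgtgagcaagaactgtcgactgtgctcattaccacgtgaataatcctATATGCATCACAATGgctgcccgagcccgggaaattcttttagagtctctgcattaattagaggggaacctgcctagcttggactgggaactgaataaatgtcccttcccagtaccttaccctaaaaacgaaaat
Sox9, peak 29 kb downstream, chr11:112811146-112811400: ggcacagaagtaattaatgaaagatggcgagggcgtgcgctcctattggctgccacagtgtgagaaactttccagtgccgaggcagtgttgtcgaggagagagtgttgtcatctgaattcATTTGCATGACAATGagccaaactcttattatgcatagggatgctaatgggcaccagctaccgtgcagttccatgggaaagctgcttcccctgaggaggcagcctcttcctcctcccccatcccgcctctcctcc
Sox15, peak 73.4 kb upstream, chr11:69581935-69582039: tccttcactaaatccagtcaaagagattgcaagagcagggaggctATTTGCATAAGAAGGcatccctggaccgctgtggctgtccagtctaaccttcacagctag
Sox13, peak 80.2 kb upstream, chr1:133504698-133504802: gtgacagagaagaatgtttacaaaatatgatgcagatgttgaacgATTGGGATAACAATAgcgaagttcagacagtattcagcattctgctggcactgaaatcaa
Sox21, peak 81.5 kb upstream, chr14:118318629-118318733: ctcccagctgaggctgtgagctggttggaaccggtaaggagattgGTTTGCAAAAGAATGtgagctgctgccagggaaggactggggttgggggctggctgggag

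All 9 genes had at least 1 peak by the rule. This says little of the family, because the same rule gave at least 1 peak to 85.7% of the 21938 protein-coding genes. The counts themselves spread widely: Sox2 had 9 peaks, Sox13 and Sox21 had 8 each, Sox15 had 6, Sox1 had 5, Sox9 had 4, Sox11 had 3, Sox4 had 2 and Sox3 had 1. Sox2 therefore had the highest count of the 9 genes, but only 1 peak more than Sox13 or Sox21. Across all protein-coding genes the median was 3 peaks. Sox2 had more peaks than 94.7% of them, and 1160 genes had at least as many. Sox13 and Sox21 had more than 91.5% of coding genes, whereas Sox11 had more than 43.6%, Sox4 more than 28.4% and Sox3 more than 14.3%, so that these 3 paralogs sat at or below the middle of the genome.

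**Figure D1:**
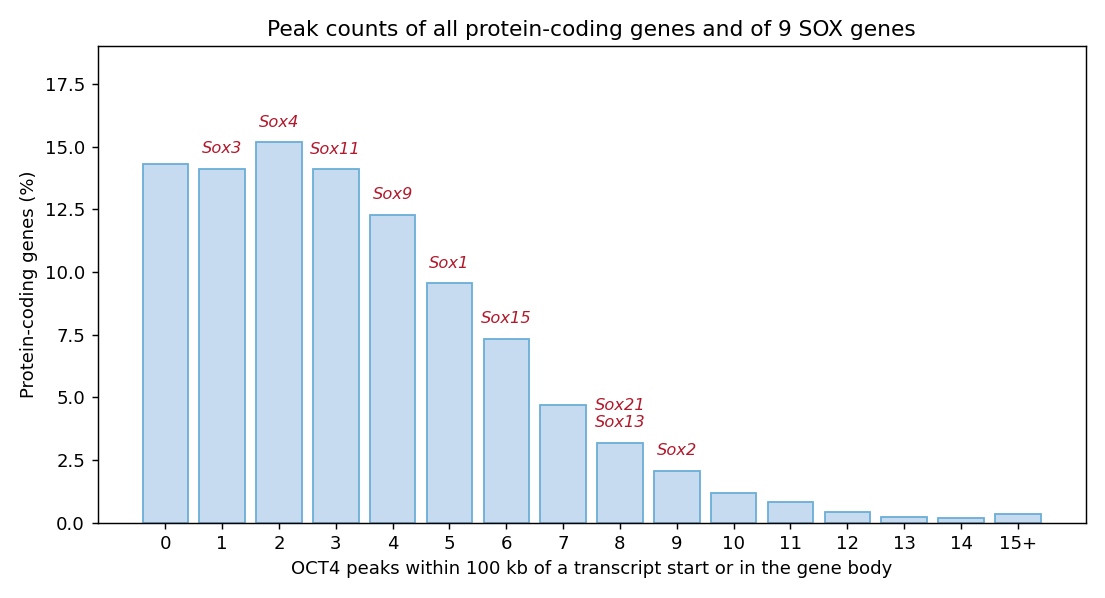
The bars show the share of protein-coding genes (%) by the number of OCT4 peaks in the gene body or within 100 kb of a transcript start, with all genes of 15 or more peaks in the last bar, and the names mark the 9 SOX genes at their counts. Sox2 lies at 9 peaks, in the right tail, and Sox3 lies at 1 peak.

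The windows differed in how far other genes intruded on them. Around Sox2 the nearest other protein-coding transcript start, that of Dnajc19, lay 569 kb away, and Sox2 was the nearest coding gene to all 9 of its peaks. Counted this way, by peaks for which a gene is the nearest coding gene, Sox2 had more than 99.2% of coding genes, and 177 genes had at least as many. Sox4, Sox9 and Sox11 also lay alone, with the next coding start 521 kb, 784 kb and 869 kb away, and with 2, 4 and 3 peaks that were all nearest to them. By this count they had more than 76.7%, 92.7% and 87.5% of coding genes, whose median was 0, and so ranked higher than by the window. Sox15 was the opposite case: Mpdu1 started 2.94 kb away and only 1 of its 6 peaks had Sox15 as its nearest coding gene. At Sox13 this held for 4 of 8 peaks, at Sox21 for 3 of 8 and at Sox1 for 4 of 5. In all, 31 of the 46 peaks were nearest to the member itself and 15 lay nearer to another coding gene.

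**Figure D2:**
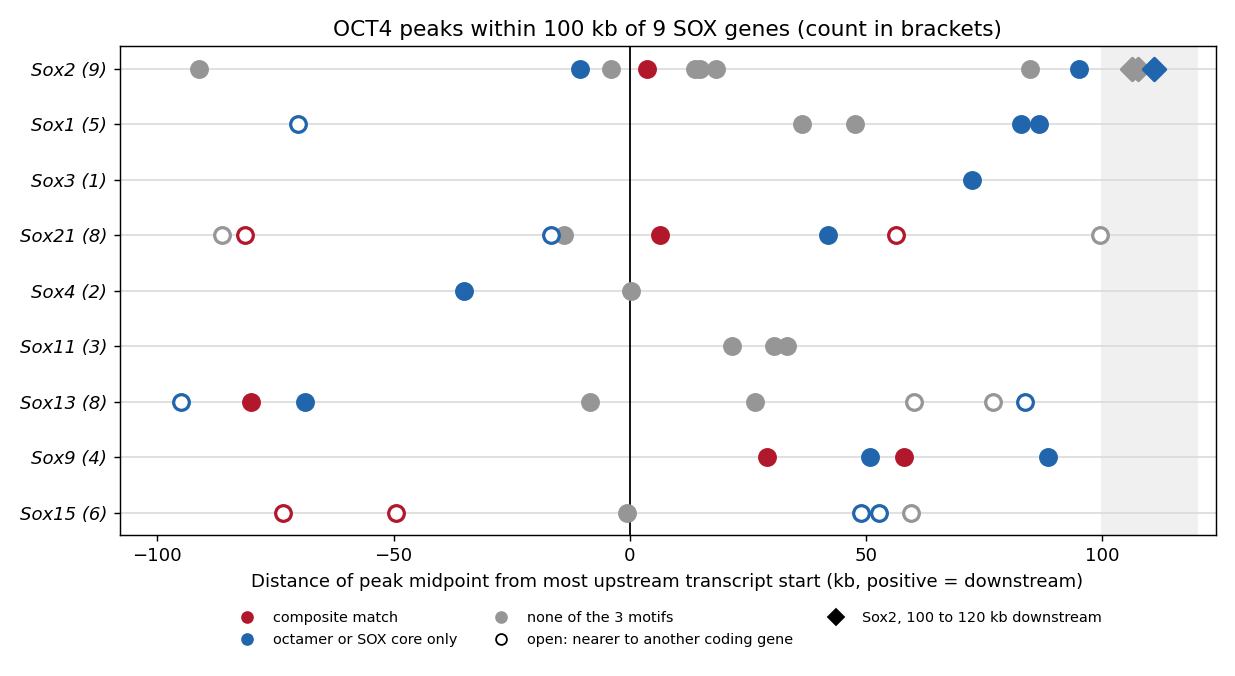
Each point is an OCT4 peak, placed by the distance of its midpoint from the most upstream transcript start of the gene (kb, negative upstream), with the peak count of each gene in brackets, colour for the motifs found in the peak, and open points for peaks nearer to another coding gene. All Sox2 points are filled, 6 of them crowd within 20 kb of the start, and the diamonds mark the 3 distal downstream peaks.

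Sox2 is a gene of 1 exon on the plus strand of chromosome 3 (34650405 to 34652461). Its 9 peaks fell into 3 parts: 6 between 10.5 kb upstream and 18.2 kb downstream of the start, 1 far upstream and 2 far downstream. No midpoint lay in the gene body. How much of the body remains on the endogenous alleles of this line is not given in the sources used here, so an unbound body and a missing or disrupted body cannot be told apart. The 7 peaks upstream of the start or within 20 kb downstream of it all lay inside Sox2ot, the long non-coding RNA gene that spans Sox2.

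Upstream, the farthest peak lay 91.2 kb from the start (34559063 to 34559418), in an intron of Sox2ot, and held none of the 3 motifs. The next lay 10.5 kb upstream (34639789 to 34640092) and held a SOX core. The last of the upstream peaks lay 4.02 kb away (34646208 to 34646555), the side and short range on which SRR1 is known, and held no motif. The peak nearest to the start was 3.57 kb downstream (34653622 to 34654323), just past the end of the gene, where SRR2 is known. With 702 bp it was the widest of the Sox2 peaks and wider than 93.9% of all peaks. It held the sole composite match at Sox2, at 34654049 to 34654063 on the minus strand, 84 bp from its midpoint.

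Counting positions from 1 at the motif's 5′ end, with the motif base first, the Sox2 match differed from the motif by T3A and A9C. The octamer and the SOX site each carried 1 change, so that 7 of 8 and 6 of 7 of their bases were intact. The same peak held the SOX core CCATTGT, which overlaps this match. The 15 bases of this match, in either orientation, were found in 1 peak of the list, that of Sox2 itself.

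Further downstream, a close group of 3 peaks lay 13.8 kb (34664142 to 34664359), 15 kb (34665262 to 34665499) and 18.2 kb (34668349 to 34668809) from the start. The 13.8 kb peak lay in an exon of the uncharacterised transcript Gm42693 and an intron of Sox2ot, the 15 kb peak in an exon of Sox2ot and the 18.2 kb peak in an intron of it. None of them held a motif. With 218 bp and 238 bp, the 13.8 kb and 15 kb peaks were the narrowest at Sox2. No peak followed for 66.6 kb, and then intergenic peaks lay 84.7 kb (34734943 to 34735342) and 95.1 kb (34745199 to 34745723) downstream, the second of which held a SOX core.

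Past the 100 kb limit, 3 intergenic peaks lay within 5.05 kb of each other, where the Sox2 control region is known. They were 106 kb (34756573 to 34757074, 502 bp), 108 kb (34757895 to 34758259, 365 bp) and 111 kb (34761174 to 34761624, 451 bp) downstream of the start. Sox2 was the nearest coding gene to all 3. None held a composite match or an octamer, and the 111 kb peak held a SOX core. The best composite alignments in them had 6, 4 and 6 mismatches. The 108 kb peak was the closest: its alignment differed by T2A, T3A, G5A and C6A. All 7 bases of the SOX site were thus intact and 4 of the 8 octamer bases were. It did not hold the SOX core, which needs a further base beside the SOX site. An alignment with at most 4 mismatches was found in 35.9% of all peaks, and these 15 bases were found in 3 peaks of the list. The central 200 bases of this peak are shown because it came closest to the composite motif in the distal region. They are read on the plus strand of GRCm38 at chr3:34757977-34758176, with no capitals because no match met the limit.

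Sox2, peak 108 kb downstream: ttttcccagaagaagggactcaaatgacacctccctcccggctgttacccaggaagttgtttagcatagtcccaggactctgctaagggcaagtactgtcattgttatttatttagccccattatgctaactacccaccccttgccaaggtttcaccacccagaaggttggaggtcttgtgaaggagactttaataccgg

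With the distal region, Sox2 thus had 12 peaks. Of these, 9 had another peak within 10 kb (75%, 95% Wilson interval 46.8 to 91.1%). Only Sox2 was read past 100 kb, and the 3 peaks so added are neighbours of one another, which raises this share. The intervals given here cover counting error over peaks only. Within the window, 6 of 9 peaks at Sox2 had such a neighbour (66.7%, 35.4 to 87.9%), as did 17 of 37 at the paralogs (45.9%, 31 to 61.6%). Over all 46 peaks 23 did (50%, 36.1 to 63.9%), whereas 33.9% of all peaks in the list had such a neighbour. The intervals of Sox2 and of its paralogs overlap. Being a neighbour is mutual, so these peaks are counted in groups and are not independent, and the intervals are too narrow. Sox2 also had the densest window of the 9 genes, at 4.5 peaks per 100 kb, which the count of neighbours partly restates. The median over all coding genes was 1.4, and 97.9% of coding genes were less dense than Sox2. Outside the 9 genes, the SOX gene Sox30 was denser, at 6 peaks per 100 kb.

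At the other SOXB1 genes the peaks stood farther from the start. The nearest peak to Sox1 (chromosome 8, start at 12395295, plus strand) was 36.5 kb downstream in an exon of Sox1ot, the non-coding gene overlapping Sox1, and held no motif. Its other peaks lay 70.3 kb upstream and 47.8 kb, 82.8 kb and 86.7 kb downstream. SOX cores were present at 70.3 kb upstream and 82.8 kb downstream and an octamer at 86.7 kb downstream, and no peak of Sox1 held a composite match. Sox3 (chromosome X, start at 60893430, minus strand) had 1 peak, 321 bp wide and 72.4 kb downstream, with a SOX core. Neither gene had a peak within 20 kb of its start, and nor did Sox9 or Sox11. Sox2 had 6 such peaks, Sox21 had 3, Sox13 had 2, and Sox4 and Sox15 had 1 each. How many of all coding genes have such a peak is not given here.

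The octamer peak of Sox1 and the upstream octamer peak of Sox4 are shown because they were the sole peaks with an octamer at members with no composite match. The peaks of Sox9 51 kb downstream and of Sox13 94.9 kb upstream also held an octamer without a composite match. They are read on the plus strand of GRCm38, and capitals mark the octamer, in the reverse orientation at Sox4.

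Sox1, peak 86.7 kb downstream, chr8:12481956-12482023: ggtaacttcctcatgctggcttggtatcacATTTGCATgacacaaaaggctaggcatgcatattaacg
Sox4, peak 35.1 kb upstream, chr13:28988821-28988888: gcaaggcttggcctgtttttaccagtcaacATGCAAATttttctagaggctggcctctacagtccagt

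In the Sox1 peak the octamer continued into a SOX site with 3 of 7 bases intact, so the whole alignment had 4 mismatches (A9G, A13C, T14A and G15A) and fell outside the limit by 1. Of the SOX site it kept positions 10 to 12 of the motif.

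Sox21, the SOXB2 gene (chromosome 14, start at 118237030, minus strand), held the most composite matches of any member, in 3 of its 8 peaks. The nearest peak, 6.49 kb downstream (118230175 to 118230906, 732 bp), had a match that differed by T4A, A9T and C11G. The others lay 56.4 kb downstream (T3A, A9C and A10C) and 81.5 kb upstream (A1G, T8A and C11G). All 3 stood at the limit of 3 mismatches and none kept the whole octamer. Only the 6.49 kb peak had Sox21 as its nearest coding gene. A pair of further peaks lay 14 kb and 16.6 kb upstream in introns of the long non-coding RNA gene Gm4675, and the peak farthest downstream, at 99.5 kb, lay 343 bp from a start of Gpr180.

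The SOXC genes had few peaks and no composite match. Sox4 (chromosome 13, start at 28953713, minus strand) was 1 of 2 members with a peak within 1 kb of their own start. The share of all coding genes with such a peak is not given here. Its peak was 236 bp wide, had its midpoint 196 bp downstream of the start in the 5′ UTR, and held no motif. Its other peak, 35.1 kb upstream and 487 bp wide, held the reverse octamer shown above. It also held a forward octamer, within its best composite alignment at 28988918 to 28988932, which had 4 mismatches. The 3 peaks of Sox11 (chromosome 12, start at 27342574, minus strand) lay 21.7 kb, 30.5 kb and 33.3 kb downstream in intergenic sequence, and Sox11 was the sole member without any of the 3 motifs in any peak. Its closest alignment had 4 mismatches, in the 30.5 kb peak.

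Sox13, the SOXD gene (chromosome 1, minus strand), is the longest of the members at 42.1 kb and has 5 annotated starts, which widened its window to 239 kb against 200 kb for each of the others. Per 100 kb of window it held 3.35 peaks, below Sox2 with 4.5 and Sox21 with 4. The nearest peak to a start of Sox13 was 4.5 kb from it (133397523 to 133398019), in an intron of Sox13, and held no motif. Its composite match stood in a peak 80.2 kb upstream of the most upstream start (133504257 to 133504863, 607 bp) and differed by T4G, C6G and G15A, with 6 of 7 bases of the SOX site intact. The peak 68.7 kb upstream was 1140 bp wide, wider than 99.6% of all peaks, and held a SOX core. Downstream, the peak 60.3 kb away lay 539 bp from a start of Etnk2, and the 2 peaks beyond it were nearest to Ren1.

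Sox9, the SOXE gene (chromosome 11, start at 112782224, plus strand), had the match closest to the motif of all 46 peaks. All 4 of its peaks lay downstream in intergenic sequence, at 29 kb, 51 kb, 58 kb and 88.5 kb, and each of them held at least 1 of the 3 motifs. The 29 kb peak (112810898 to 112811517, 620 bp) held an intact octamer followed by a SOX site with 1 change, A9G, at 112811266 to 112811280 on the minus strand. Only 79 of all peaks, or 0.296%, came as close as 1 mismatch, and 6 had the exact motif. The 15 bases of the Sox9 match were found in 2 peaks of the list. The 58 kb peak was 1065 bp wide, wider than 99.4% of all peaks, and held a match that differed by A1T, C11A and A12T. The same peak held an octamer and a SOX core.

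Sox15, the SOXG gene (chromosome 11, start at 69655314, plus strand), was the other member with a peak within 1 kb of its own start, 314 bp wide and 670 bp upstream, with no motif. Its composite matches stood in peaks that lay at other genes. The peak 73.4 kb upstream (69581334 to 69582495) was 1162 bp wide, the widest of the 46, and lay in an intron of Trp53, the gene of the tumour suppressor p53. Its match differed by C11G and T14G with an intact octamer, and the same 15 bases were found in 5 peaks of the list. The peak 49.4 kb upstream (705 bp) lay 50 bp from a start of Atp1b2, a sodium pump subunit, in an exon of a non-coding transcript of that gene, and its match differed by A10T, C11G and A12T. The remaining peaks lay 48.9 kb, 52.8 kb and 59.5 kb downstream, all nearest to Tnfsfm13.

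Aligned to the motif, the 9 composite matches differed in which part was kept. These matches are given in the order of their mismatches, with capitals for the bases identical to the motif.

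Sox9, 29 kb downstream: ATTTGCATgACAATG
Sox2, 3.57 kb downstream: ATaTGCATcACAATG
Sox15, 73.4 kb upstream: ATTTGCATAAgAAgG
Sox15, 49.4 kb upstream: ATTTGCATAtgtATG
Sox9, 58 kb downstream: tTTTGCATAAatATG
Sox13, 80.2 kb upstream: ATTgGgATAACAATa
Sox21, 56.4 kb downstream: ATaTGCATccCAATG
Sox21, 6.49 kb downstream: ATTaGCATtAgAATG
Sox21, 81.5 kb upstream: gTTTGCAaAAgAATG

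In 3 of the 9 the octamer was intact. Positions 9 to 11, the start of the SOX site, held a mismatch in 8 of the 9, the exception being Sox13. Over all 3083 peaks with a composite match, 65.1% had a mismatch at those positions. These positions were chosen after the member matches were seen, the member count rests on 9 sites, and over all matches positions 1, 14 and 15 were changed in 24.8%, 27% and 26.5%, near the 27.6% of position 9. Position 11 was changed most often in both sets, in 5 of 9 member matches and in 32.3% of all.

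Composite matches were present in 9 of 46 peaks (19.6%, 10.7 to 33.2%), against 11.5% of all peaks, which lies inside that interval. In the central 200 bp of the peaks alone the share was 6.52% (2.24 to 17.5%) against 8.59% of all peaks, and with AACAAAG as the SOX site it was 10.9% (4.73 to 23%) against 12.9%, both below the list and with its share inside the interval. By gene they were found in 1 of 9 peaks at Sox2 (11.1%, 1.99 to 43.5%) and in 8 of 37 at the paralogs (21.6%, 11.4 to 37.2%), so the share at Sox2 was near that of all peaks and the intervals overlap widely. Among the 31 peaks nearest to the member itself, 5 held a match (16.1%, 7.09 to 32.6%). In windows of the same width 5 kb to each side, a match was found in 0 of 90 (up to 4.09%), against 1.86% of the windows around all peaks.

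An intact octamer occurred in 8 of the 46 (17.4%, 9.09 to 30.7%), against 11% of all peaks. All 8 lay at paralogs: 3 at Sox9, 2 at Sox15 and 1 each at Sox1, Sox4 and Sox13. At Sox2 the octamer was found in 0 of 9 peaks (up to 29.9%), or 0 of 12 with the distal region (up to 24.2%). Given that 11% of all peaks held it, this count does not set Sox2 apart. A SOX core occurred in 14 of the 46 (30.4%, 19.1 to 44.8%), close to the 30.3% of all peaks. It was found in 3 of 9 peaks at Sox2 and in 11 of 37 at the paralogs, and the 111 kb peak outside the 46 added 1 at Sox2. At least 1 of the 3 motifs occurred in 25 of the 46 (54.3%, 40.2 to 67.8%) against 43.7% of all peaks, and 21 member peaks held none. At Sox2 the count was 3 of 9 (33.3%, 12.1 to 64.6%), and at the paralogs 22 of 37 (59.5%, 43.5 to 73.7%). The direction differs from that of the peak counts, in which Sox2 stood highest, but these intervals overlap.

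**Figure D3:**
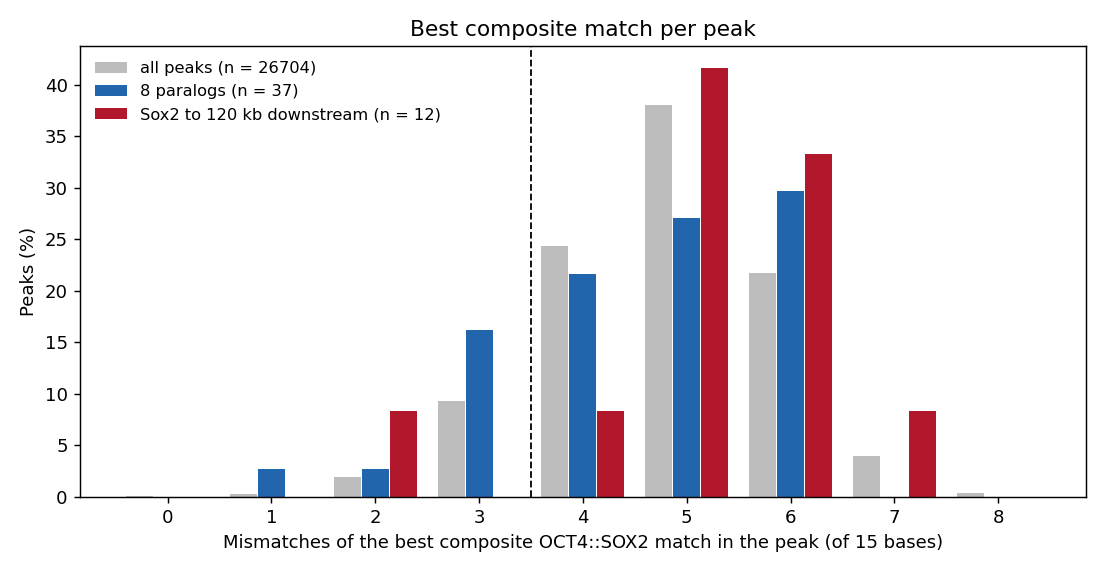
Bars give the share of peaks (%) by the number of mismatches of their best alignment to the 15-base composite motif, for all peaks, the 8 paralogs and Sox2 read to 120 kb downstream, and the dashed line marks the limit of 3 mismatches. At Sox2, 1 of 12 peaks lies left of the line, and the paralogs hold the sole member match with 1 mismatch.

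Peak width went with the composite match among the members. The 46 peaks were 212 bp to 1162 bp wide with a median of 358 bp, next to 352 bp for all peaks. The 9 with a composite match were 456 bp to 1162 bp wide, so that none was as narrow as the median. Of the 11 member peaks over 600 bp, 7 held a match (63.6%), whereas 16.5% of all 2953 peaks over 600 bp did. This width was chosen after the values were seen, and a wider peak also offers more sequence in which a match can fall. The match lay a median of 117 bp from the midpoint of the member peaks, against 50 bp over all peaks with a match.

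**Figure D4:**
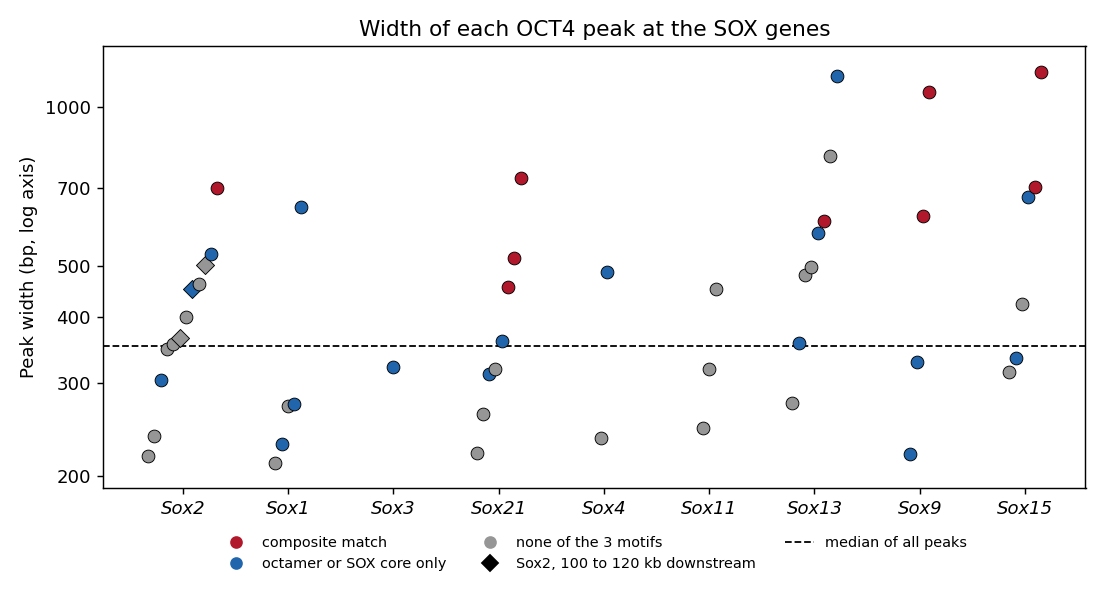
Each point is an OCT4 peak at the named gene, with its width in bp on a log axis, colour for the motifs it holds, diamonds for the 3 distal Sox2 peaks and a dashed line at the median width of all peaks. Every peak with a composite match lies above the line, and at Sox2 the widest peak is the composite peak.

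Promoter-proximal peaks, with a midpoint within 1 kb of a coding start, made up 5 of 46 (10.9%, 4.73 to 23%) against 13.8% of all peaks. They were the peaks at the starts of Sox4, Sox15, Etnk2, Atp1b2 and Gpr180, and Sox2 had none. By annotation, a protein-coding gene held 6 of the 46 midpoints (13%, 6.12 to 25.7%), against 46.2% of all peaks. Intergenic sequence held 29 (63%, 48.6 to 75.5%), against 46.1% of all peaks. Genes annotated as non-coding or unclassified alone held 11 (23.9%, 13.9 to 37.9%), of which 7 were at Sox2, against 7.76% of all peaks. The rule placed the windows around genes that, but for Sox13, are 1.41 kb to 8.31 kb long. Around Sox2, Sox4, Sox9 and Sox11 the next coding start lay at least 521 kb away. How far this placement sets the annotation shares was not tested. The median GC content was 48.1% against 46.4% for all peaks, and the median repeat-masked share was 10.2% against 13%. The median distance to the nearest coding start was 25.3 kb against 17.8 kb.

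At the edge of the window the farthest member was the Gpr180 peak of Sox21 at 99.5 kb. The nearest peaks outside lay 104 kb from Sox15, 105 kb from Sox21, 106 kb from Sox2 and 107 kb from Sox1. Sox2 was thus 1 of 4 members with a peak less than 10 kb past the limit. The share of all coding genes with such a peak is not given here.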

How the data were processed

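Paired-end reads had been aligned by the authors to mm10 using STAR (2.6.1c). Duplicates were removed with Picard and reads outside the 19 autosomes, X and Y were dropped. MACS2 (2.1.1.20160309) called the peaks, which BEDTools then merged into the deposited list of peak coordinates, in base pairs. Which of the 4 OCT4 libraries were merged, and whether replicates were pooled before calling, is not given in the sources used here. Merging joins overlapping peaks, so a width describes a union of calls.

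Peak midpoints were assigned to genes with GENCODE M21. Distances are from the most upstream transcript start unless stated otherwise, and coordinates are 1-based. The best ungapped alignment to the composite motif was taken per peak. Flanking windows lay 5 kb from the midpoint, and 52500 were free of peaks and unknown bases. The motif search was tested on simulated sequences. Intervals are 95% Wilson intervals. No test was run, because peaks of a merged list are not replicates. The text describes all Sox2 peaks and, for each paralog, the peak nearest to a start and those with a composite match. Other peaks named, such as very wide ones, were chosen after their values were seen. The genes, motifs and lists were chosen with earlier results of these data known. Scripts ran under Python 3.11.15 with SciPy 1.17.1 and NumPy 2.4.6, and matplotlib 3.10.9 drew the plots.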

Additional observations from a re-analysis of the deposited data

How the results depend on the processing

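The 6 summary values (peaks at the 9 genes, peaks at Sox2, genes with a peak, and shares with a composite match, octamer or SOX core) were recomputed under other windows, assignments, widths and motif definitions. Of 42 such values, 36 stayed within 1.5 times the reported count or inside the 95% interval of the reported share, and 6 did not. These intervals are wide with 46 peaks: the composite share with AACAAAG as the SOX site, 10.9% against 19.6%, and the SOX core in the central 200 bp, 19.6% against 30.4%, lay inside them. The number of member peaks was 26 with a 50 kb window and 78 with a 200 kb window, and Sox2 had 15 peaks with the 200 kb window. The composite share was 6.52% with at most 2 mismatches (2.24 to 17.5%, against 2.21% of all peaks), 6.52% in the central 200 bp alone (against 8.59%) and 37% with at most 4 mismatches (against 35.9%). It thus stood above the list in the first and last, and below it in the central 200 bp. The share thus depends on the mismatch limit by its construction. With a 50 kb window 8 of 9 genes had a peak, since Sox3 lost its only one. The share of all coding genes with a peak in that window is not given here, so this count says nothing of the family.

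No paired analysis was possible because coordinates alone were given, with no value per library. SOX2 OFF and SOX2 ON cells were therefore not compared, neither with nor without the replicate as a block, and no replicate was left out. Library depth is unknown, so its effect on the counts cannot be given.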

Other observations

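By the same rule, 10 further SOX genes had 50 peaks together, with a median of 3.5 and a range from 0 to 13. Of these genes 9 had a peak, the same rule reaching 85.7% of coding genes. Sox5 had 13 peaks, of which 12 lay inside its gene body of 954 kb, and only 1 lay within 100 kb of its most upstream start. Sox30 had 12 in a window of 200 kb, more than the 9 of Sox2, and 3 of them had Sox30 as the nearest coding gene. Sox8 had none. The endoderm gene Sox17 had 1 peak, 29 bp from a start, and no motif in it. Composite matches were present in 4 of the 50 peaks, in 2 at Sox6 and in 1 each at Sox5 and Sox30. Over the whole list 11.5% of peaks held one, and no interval was computed for these 50. The closest match at each of Sox5, Sox6 and Sox30 had 2 mismatches.

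Some best alignments recurred in other peaks. The 15 bases at the Sox13 peak 83.7 kb downstream, with 6 mismatches, were found in 12 peaks of the list, and 53% of the bases of that peak were repeat-masked.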
